A study of Mus musculus with 19 samples.

Results

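Pros1, Gas6, Tyro3, Axl and Mertk are the 5 genes of the TAM axis, named for the initials of its receptors. They were taken by name, around the fall of Pros1 in every BAP1 knockout clone of the series, so the differences of Pros1 between the clones and wild type are given as a description without a test. Of the 5, 4 stand in the bulk table of 13202 genes, and Gas6 was not analysed here in the bulk libraries. All 5 stand in the single-cell matrices.

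Protein S (Pros1) and Gas6 are secreted, vitamin K-dependent proteins that bind phosphatidylserine on dying cells with one end and a receptor tyrosine kinase with the other. Protein S engages Tyro3 and Mertk, and Gas6 engages Tyro3, Axl and Mertk. In macrophages the receptors drive the engulfment of dying cells and dampen innate signalling, in melanoma Axl is known from cells with low Mitf, and in plasma protein S is a cofactor of activated protein C and of the tissue factor pathway inhibitor.

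The bulk libraries came from Melan-a, an immortalised mouse melanocyte line. The knockout group was 4 independent clones made with CRISPR, each a single line with 2 cultures, and the wild-type (WT) group was the Melan-a line with 2 cultures, so 10 libraries in all, every one labelled with the same batch and no treatment. No line was edited and cloned with Bap1 kept, so the loss of Bap1 cannot be told apart from editing, cloning and time in culture. The label of a melanocyte line held in the data: the melanocyte regulators Mitf and Sox10 averaged 18818 to 20843 and 25935 to 29663 normalised reads in the clones and 17552 and 28944 in WT. The labels do not say how far apart the 2 cultures of a line were grown, so p-values measure only the spread between these cultures. The tumours were grown from knockout or wild-type Melan-a cells injected into syngeneic mice under the skin or into the eye. There is 1 matrix for each kind of tumour. The sample title, of multiplexed tumour tissues, does not give the number of tumours or animals in a matrix. The host's own cells, with intact Bap1, stand among the cells measured. The sources used here give neither the strain, sex and age of the mice nor the clone injected. Depth recovered from the stabilised values ran from 30.8 to 46.8 M reads per bulk library, and the 4 matrices held 88.8 to 115.6 M UMIs (unique molecular identifiers, one per captured molecule).

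Bap1 itself was checked first. Clone 1 had 756.3 and 658.1 normalised reads of it, clone 2 had 1071 and 1129, clone 3 had 1198 and 1102 and clone 4 had 493.1 and 360.8, against 4468 and 4410 in WT (reads divided by the authors' size factors). All 8 clone libraries lay below both WT libraries. The difference on the stabilised log2 scale was −2.38, −1.85, −1.79 and −2.94 in clones 1 to 4, and the highest of the adjusted p-values in limma was 6.69e-06. In the matrices, by contrast, the melanocytic cells labelled KO skin held 48.4 CPM of Bap1 (UMI counts scaled to the summed UMIs of the cells) and those labelled WT skin 41.6. Bap1 therefore goes against the label of the skin matrices as far as the level of the transcript can show it, and the sources used here do not place the Bap1 probes or tags relative to the edits. Each matrix is called by its label below, and every direction drawn from them carries that limit.

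The promoters of Pros1 and Axl are shown, as the ligand with the largest differences and the receptor whose level spread most among the clones. Each runs from 250 bases before to 50 bases after a start listed for the gene in RefSeq, 5′ to 3′ on the gene's strand, in GRCm38.p6. For Pros1 this is the outermost start of the gene. For Axl it is a start inside the gene, whose outer end on the minus strand lies at 25788924, within the window. The window thus holds that outer end with only a short stretch before it, not the full 250 bases. Capitals mark the letters of the motifs found. Pros1 lies on chromosome 16 (chr16:62854057-62854356, plus strand) and Axl on chromosome 7 (chr7:25788684-25788983, minus strand).
Pros1: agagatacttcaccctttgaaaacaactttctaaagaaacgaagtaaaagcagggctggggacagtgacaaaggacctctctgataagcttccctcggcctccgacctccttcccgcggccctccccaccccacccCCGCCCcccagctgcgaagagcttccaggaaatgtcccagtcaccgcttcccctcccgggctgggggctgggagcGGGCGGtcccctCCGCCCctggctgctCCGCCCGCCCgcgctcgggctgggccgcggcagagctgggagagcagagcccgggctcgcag
Axl: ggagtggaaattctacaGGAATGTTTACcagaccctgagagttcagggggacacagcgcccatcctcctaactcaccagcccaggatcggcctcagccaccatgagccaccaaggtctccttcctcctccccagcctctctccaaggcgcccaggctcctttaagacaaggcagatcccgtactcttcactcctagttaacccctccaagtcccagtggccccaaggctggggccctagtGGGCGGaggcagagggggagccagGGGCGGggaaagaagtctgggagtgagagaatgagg
The Pros1 window held 21 CpG dinucleotides and 5 copies of GGGCGG, the GC box, the last pair of them overlapping each other. The Axl window held 6 CpG dinucleotides, 2 GC boxes, 1 forkhead motif (GTAAACA) and 1 TEAD motif (GGAATG), of which the forkhead and TEAD letters overlap. Both strands were searched. The median over 32851 mouse promoters of this length was 7 CpG dinucleotides, and 35.7% of them held a GC box, 3.65% the forkhead motif and 14.7% the TEAD motif. Among the other members, Gas6 had 4 GC boxes and 17 CpG dinucleotides, Tyro3 6 and 31, and Mertk 4 and 14. The Tyro3 window also lay around a start inside the gene, which begins at 119797740, while the window begins at 119799264. The letters CACGTG (E-box), TCATGTG (M-box), TGANTCA (AP-1) and GCCATNTT (YY1) were in none of the 5 windows. All 5 members matched the RefSeq table.

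Pros1 was lower in each clone than in WT, and far lower in 3 of the 4. Normalised reads were 836.1 and 424.0 for clone 1, 40.9 and 21.5 for clone 2, 57.7 and 80.1 for clone 3 and 40.3 and 55.7 for clone 4, against 1565 and 1563 for WT. In bulk libraries, less RNA per cell and fewer cells with it cannot be told apart. No clone library reached a WT library, and the clones themselves fell into a high one and 3 low ones. The clone means were 40.3%, 1.99%, 4.41% and 3.07% of the WT mean. The stabilised scale flattens at low counts and so understates the change of low genes. On it the differences were −1.16, −3.37, −2.99 and −3.17 (SE 0.20 each), with a mean of −2.67 ± 1.02 (SD, n = 4 clones). That SE pools the lines, whose own SD between cultures ran from 0.0015 in WT to 0.54 in clone 1. From the recovered reads, edgeR gave log2 fold changes of −1.28, −5.66, −4.53 and −5.06.

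The gap between clone 1 and the rest was set against the spread between cultures. The choice of Pros1 rested on the clones against WT and not on the clones against each other. The same clone values enter both, so the p-values of Pros1 among the clones and the rank of its span are not independent of that choice. Among the clones Pros1 differed (limma F test, adjusted p = 9.61e-05), as did 44.5% of the 10803 genes tested. Its clone means spanned 2.21 log2 units, against a median span of 0.42 over all genes, and 0.759% of genes spanned more. Clones 2, 3 and 4 were lower than clone 1 by −2.21, −1.83 and −2.02 (limma, adjusted p of 0.000105, 0.000192 and 9.52e-05). Over all genes, the 6 pairs of clones gave calls for 11.5% (clones 2 and 1), 29.4% (3 and 1), 29.6% (4 and 1), 15.8% (3 and 2), 21.5% (4 and 2) and 20.1% (4 and 3). Between clones 2, 3 and 4 the differences of Pros1 were 0.38 at most, with adjusted p-values of 0.240 to 0.571 in limma, so they were not separable beyond the spread between cultures. The order of Bap1 levels was another one: clone 1, with the highest Pros1, had neither the highest nor the lowest Bap1.

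**Figure D1:**
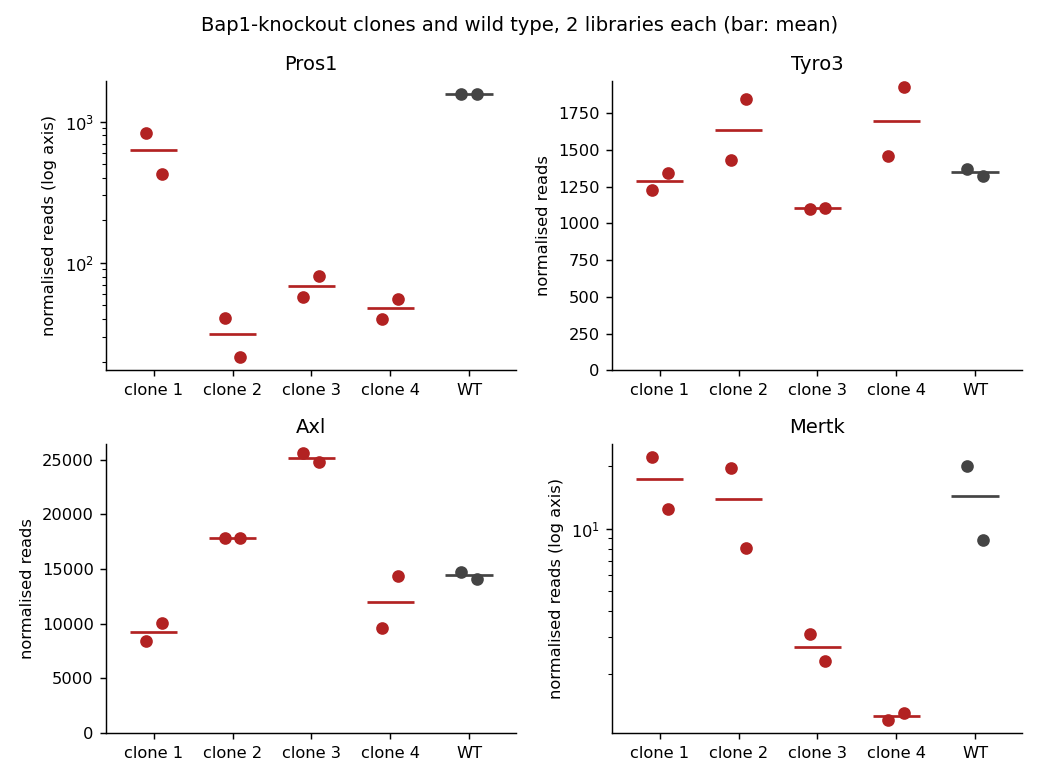
Normalised reads of Pros1, Tyro3, Axl and Mertk in each bulk library (points) with the mean of each line (bars), knockout clones in red and WT in grey. Pros1 and Mertk are on log axes and the others start at 0, and the WT points of Pros1 at 1565 and 1563 stand above every clone point.

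The genes whose values ran most like those of Pros1 over the 10 libraries were Porcn, Gm19412, Pdk3, Arhgef19 and Fam107b. Their Pearson correlations with Pros1 were 0.992, 0.989, 0.988, 0.988 and 0.987 among 10802 genes, as a description over libraries that share their lines. A correlation above 0.9 was found for 385 genes. Porcn, which adds palmitoleate to Wnt proteins, differed from WT by −0.58, −1.42, −1.39 and −1.32 in clones 1 to 4, the same order of a high clone 1 and 3 low clones. Pdk3, a kinase of pyruvate dehydrogenase, differed by −0.42, −1.13, −0.93 and −1.05.

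Tyro3, a receptor of protein S and Gas6, differed from WT by at most 0.28 log2 units in any clone. The cultures held 1229 and 1347 normalised reads (clone 1), 1430 and 1846 (clone 2), 1101 and 1105 (clone 3) and 1461 and 1930 (clone 4), against 1374 and 1327 (WT). Clone 3 lay below both WT libraries, clones 2 and 4 above both, and clone 1 overlapped them. The differences from WT were −0.06, 0.24, −0.25 and 0.28 (SE 0.14), and none passed the threshold in limma (adjusted p of 0.887, 0.246, 0.178 and 0.143). Without culture 1 of clone 4, Tyro3 was called in that clone (0.46, adjusted p = 0.0309).

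Axl, the receptor with the highest affinity for Gas6, moved in different directions in different clones. Its normalised reads came to 8385 and 10062 for clone 1, 17840 and 17856 for clone 2, 25614 and 24815 for clone 3 and 9561 and 14392 for clone 4, against 14707 and 14134 for WT. Clones 2 and 3 lay above both WT libraries and clone 1 below both, while clone 4 overlapped them. Axl rose in clone 3, by 0.80 (SE 0.17, limma adjusted p = 0.00427), and this was the only call among the 8 comparisons of Tyro3 and Axl with WT. The share of all genes called was 3.5% in clone 1, 26.1% in clone 2, 39.8% in clone 3 and 36.5% in clone 4. The other differences of Axl were −0.64 in clone 1, 0.30 in clone 2 and −0.29 in clone 4, with adjusted p of 0.0710, 0.217 and 0.199 in limma. With the culture number added to the limma fit, Axl was called in clone 1 too. The value for clone 1 crossed the threshold in DESeq2 on the recovered reads (adjusted p = 0.0127) and in limma without either culture of clone 4 (0.0118 and 0.0117), and that for clone 4 without its culture 2 (−0.58, adjusted p = 0.00960). Beside the value of clone 4, genes on chromosome 7, where Axl lies, had a median difference of −0.19 in that clone, against 0.04 over all genes, and the part of this in the result was not tested.

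Both receptors differed among the clones, as did 44.5% of the 10803 genes tested. For Axl the clone means spanned 1.44 log2 units (limma F test, adjusted p = 0.000512), and for Tyro3 they spanned 0.53 (adjusted p = 0.0281). The median span over all genes was 0.42. Wider spans than that of Axl were found for 3.08% of genes, and than that of Tyro3 for 34%, so the spread of Tyro3 was an ordinary one. Axl was higher in clone 2 than in clone 1 by 0.94 and in clone 3 than in clone 1 by 1.44, and lower in clone 4 than in clone 2 by −0.60 and in clone 4 than in clone 3 by −1.09 (limma adjusted p of 0.00559, 0.000259, 0.0307 and 0.00188). In order from the lowest to the highest Axl, clones 1 and 4 did not differ beyond their spread (adjusted p = 0.148), nor did clones 2 and 3 (adjusted p = 0.0750). Tyro3 was lower in clone 3 than in clone 2 by −0.49 and higher in clone 4 than in clone 3 by 0.53 (limma adjusted p of 0.0409 and 0.0246). The call for Tyro3 among the clones was lost without either culture of clone 3 (adjusted p of 0.112 and 0.110) or either WT culture (0.0554 and 0.0553).

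Mertk, the receptor that macrophages use to engulf dying cells, was close to the limit of detection in the cultured melanocytes. Clone 1 had 30 and 11 reads, clone 2 had 22 and 9, clone 3 had 3 and 2 and clone 4 had 1 and 1, against 21 and 10 in WT. Clones 3 and 4 lay below both WT libraries, and clones 1 and 2 overlapped them. The level fell under the filter, and without it the differences were 0.06, −0.01, −0.30 and −0.38 on the stabilised scale. In that fit Mertk fell in clone 4 (limma adjusted p = 0.0223) and missed the threshold in clone 3 (adjusted p = 0.0548), where 34.4% and 37.4% of 13202 genes were called. On the recovered reads without a filter, edgeR's quasi-likelihood test called both (adjusted p of 0.0157 in clone 4 and 0.0381 in clone 3), and DESeq2 called clone 4 (adjusted p = 0.0229) but not clone 3 (adjusted p = 0.0622).

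**Figure D2:**
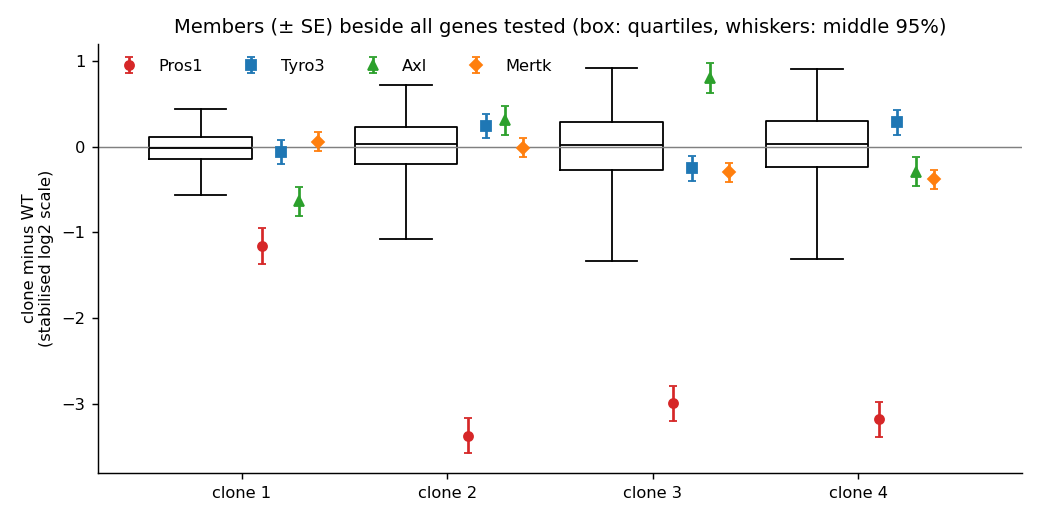
Difference of each clone from WT on the stabilised log2 scale for Pros1, Tyro3, Axl and Mertk (points, ± SE), beside all genes tested (box of quartiles, whiskers over the middle 95%). Pros1 at −1.16 to −3.37 lies outside the whiskers in all 4 clones, while Tyro3 lies between −0.25 and 0.28.

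Each clone was also taken as 1 value. The mean difference over the 4 clones was 0.05 ± 0.25 for Tyro3 and 0.04 ± 0.64 for Axl (SD, n = 4), with 2 of 4 clones higher in each case. In limma 0 of the 2 receptors passed (adjusted p of 0.961 and 0.984), and 0 were under 0.05 before adjustment. This test also called 0 of all 10803 genes, Bap1 included, edgeR on the recovered reads called 0, and DESeq2 called 33 of 10583, neither receptor among them. The members did not run together over the 10 libraries, with Pearson correlations of −0.30 between Pros1 and Tyro3, −0.41 between Pros1 and Axl and −0.20 between Tyro3 and Axl. The closest genes were Tuba1c, Acsf3 and Shisa4 for Tyro3 (0.962, 0.940 and 0.939) and Ripor1, Ctdspl and Trak1 for Axl (0.964, 0.960 and 0.957).

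Other genes around the axis were read from lists of 104 genes, of which 74 stand in the bulk table and 64 passed the filter. Clone 1 gave 4 calls, 2 of them higher (Tfpi and Ager) and 2 lower (Lck among them). Clone 2 gave 30 calls (12 higher, 18 lower), clone 3 gave 35 (17 higher, 18 lower) and clone 4 gave 27 (12 higher, 15 lower). These are 6.25%, 46.9%, 54.7% and 42.2% of the 64, beside the 3.5%, 26.1%, 39.8% and 36.5% of all genes. The median difference over the 64 was 0.01, −0.01, 0.09 and −0.11, against −0.02, 0.03, 0.01 and 0.04 over all genes. With either WT culture left out, clone 1 gave 1 call each time, clone 2 gave 17 and 14, clone 3 gave 22 and 23 and clone 4 gave 15 and 16, and leaving out other single cultures gave 1 to 10 for clone 1. Genes named below were picked by a rule on the size of their mean difference over the clones among those called, so their values describe the extremes of each list.

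Protein S and Gas6 are made active by vitamin K-dependent carboxylation. From the list that holds the carboxylase, the vitamin K cycle and other carboxylated proteins, Ggcx, Vkorc1l1, Prrg1 and Prrg2 were tested. Ggcx and Prrg2 were called in clones 2 and 3 and Prrg2 in clone 4, all lower. In clones 2, 3 and 4 this was 50%, 50% and 25% of the list, beside 26.1%, 39.8% and 36.5% of all genes. Ggcx, the vitamin K-dependent carboxylase itself, differed by −0.11, −0.33, −0.53 and −0.16 in clones 1 to 4 and fell in clones 2 and 3 (limma adjusted p of 0.0290 and 0.00166). Prrg2, a membrane protein with a carboxylated domain, fell in clones 2, 3 and 4 by −0.54, −0.27 and −0.29 (adjusted p of 0.00275, 0.0427 and 0.0376).

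Among the partners of protein S in coagulation, 4 were tested, with 1 called in clone 1, 2 in clone 2, 2 in clone 3 and 1 in clone 4. The shares were 25%, 50%, 50% and 25%, beside 3.5%, 26.1%, 39.8% and 36.5% of all genes. Tfpi, the inhibitor for which protein S is a cofactor, rose in clones 1, 2 and 3 by 0.66, 0.48 and 0.72 (limma adjusted p of 0.0315, 0.0290 and 0.00256), to means of 88.4, 66.1 and 98.0 normalised reads, against 21.2 in WT, while clone 4 had 13.0. Procr, the endothelial protein C receptor, rose in clone 3 by 1.10 (adjusted p = 0.000280) and differed by −0.30, 0.37 and −0.40 in clones 1, 2 and 4. F3, tissue factor, fell in clones 2 and 4 by −0.44 and −0.45 (adjusted p of 0.00645 and 0.00389).

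Of other ligands and the proteases that shed the receptors, 3 were tested, with 0, 2, 3 and 2 called in clones 1 to 4. Over all genes 3.5%, 26.1%, 39.8% and 36.5% were called, and a list of 3 genes gives only a coarse share. Lgals3, a galectin that binds Mertk, rose in clones 2, 3 and 4 by 1.61, 1.26 and 1.16 (limma adjusted p of 0.000372, 0.000986 and 0.00178) and was 0.61 above WT in clone 1 (adjusted p = 0.153). Adam10 fell in clones 3 and 4 by −0.55 and −0.43 (adjusted p of 0.0156 and 0.0469) and differed by 0.04 in clone 2. Adam17, which sheds Mertk, fell in clones 2 and 3 by −0.64 and −0.50 (adjusted p of 0.00141 and 0.00328) and differed by 0.03 in clone 4.

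The genes that expose or hide phosphatidylserine, 8 of them tested, gave 6 calls in clone 2, 5 in clone 3 and 2 in clone 4, of which 2, 1 and none were higher. These are 75%, 62.5% and 25% of the 8, beside 26.1%, 39.8% and 36.5% of all genes. In clone 4 the share was thus below that of all genes. Atp8a1, a flippase that returns the lipid to the inner leaflet, fell in clones 2, 3 and 4 by −1.01, −0.86 and −0.99 (highest limma adjusted p = 0.00101). Xkr8, a scramblase of dying cells, fell in clones 2 and 3 by −0.36 and −0.43 (adjusted p of 0.0455 and 0.0145).

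Of other phosphatidylserine bridges and receptors 8 were tested, and 1, 3, 5 and 4 were called in clones 1 to 4. Ager, a receptor that binds phosphatidylserine among other ligands, rose in all 4 clones by 0.49, 0.59, 0.73 and 0.56 (highest limma adjusted p = 0.0425). Cd36, a scavenger receptor, fell in clones 2, 3 and 4 by −3.44, −3.39 and −4.41 (highest adjusted p = 0.00173), and was −1.80 below WT in clone 1 (adjusted p = 0.123). Its mean was 1276, 268.3, 225.2 and 56.7 normalised reads in the clones, against 3961 in WT. Thbs1, a secreted ligand of Cd36, fell in clones 2, 3 and 4 by −2.99, −2.33 and −3.75 (highest adjusted p = 2.24e-05). For both, clone 1 stood nearest to WT, as it did for Pros1. This is not particular to these genes, since 3.5% of all genes were called in clone 1, against 26.1%, 39.8% and 36.5% in clones 2, 3 and 4.

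Of 11 genes of the engulfment machinery, 5 were called in each of clones 2, 3 and 4, with 2, 3 and 3 of them higher. That is 45.5% in each, beside 26.1%, 39.8% and 36.5% of all genes. Dock1, an activator of Rac1, fell in clones 2, 3 and 4 by −0.36, −0.66 and −0.75, and Gulp1, an adaptor of engulfment receptors, in clones 3 and 4 by −0.75 and −0.95 (highest limma adjusted p of 0.0249 and 0.0283). Trio, an exchange factor for Rac, rose in clones 2, 3 and 4 by 0.77, 0.39 and 0.53 (highest adjusted p = 0.0239).

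Among 13 signal transducers bound by the receptors, 2, 7, 7 and 8 were called in clones 1 to 4. The shares were 15.4%, 53.8%, 53.8% and 61.5%, beside 3.5%, 26.1%, 39.8% and 36.5% of all genes. Akt1, a kinase downstream of PI3K, rose in clones 2, 3 and 4 by 0.49, 0.88 and 1.01 (highest limma adjusted p = 0.0292). Lck, a Src family kinase, was lower in clones 1, 2 and 4 by −1.52, −1.05 and −1.24 and higher in clone 3 by 0.64 (highest adjusted p = 0.00429). In the feedback list of myeloid cells, 6 genes were tested, and 2, 3 and 2 were called in clones 2, 3 and 4, all lower. These shares, 33.3%, 50% and 33.3%, were near those of all genes in clones 2 and 4. Socs3, a brake on cytokine signalling, fell in clones 2, 3 and 4 by −1.42, −1.18 and −1.14 (highest limma adjusted p = 0.00324). Ifnar1, the interferon receptor chain with which Axl and Tyro3 act in dendritic cells, fell in clone 3 by −0.31 (adjusted p = 0.0234).

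Known regulators of Axl in melanocytic cells were counted last, 7 of them tested, with 1, 3 and 2 called in clones 2, 3 and 4. The shares were 14.3%, 42.9% and 28.6%, beside 26.1%, 39.8% and 36.5% of all genes, so the list did not stand out. Yap1, a coactivator of TEAD factors, rose in clone 3 by 1.14 (limma adjusted p = 4.88e-05), where 39.8% of all genes were called. In clones 1, 2 and 4 Yap1 was within 0.18 of WT, while Axl differed by −0.64, 0.30 and −0.29. Axl rose in clone 3 as well, and a link between the 2 genes was not tested. Tead4 rose in clones 2 and 3 by 0.72 and 0.75 (highest adjusted p = 0.00501), and Tead1 fell in clone 4 by −0.96 (adjusted p = 0.000391). Mitf differed by 0.24, 0.11, 0.10 and 0.25 and passed in no clone (lowest adjusted p = 0.0886).

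Cells of the tumours were classed by markers within each matrix, and levels are the UMI counts of a class in CPM, with an exact Poisson 95% interval that covers counting error only. There is 1 matrix per label, so no difference between matrices was tested, and a gene is called past 2-fold by size alone. Melanocytic-like cells numbered 7857 of 13111 in KO skin (clusters 1 to 6, 8, 10 and 11) and 5459 of 11682 in WT skin (clusters 1 to 5 and 13), and macrophage-like cells 1489 (clusters 12 and 13) and 2174 (clusters 9, 10 and 11). In KO ocular they numbered 2729 and 610 of 9398, and in WT ocular 3537 and 1584 of 26168. All 10 of 10 melanocytic markers were detected in macrophages, fibroblasts, endothelial cells and neutrophils of both skin matrices, and they summed to 19701 CPM in macrophages of KO skin and 20423 CPM in those of WT skin, against 38869 and 59084 CPM in the melanocytic cells. RNA of melanocytic cells is thus found with every class, and a level at or below that of neutrophils, lymphocytes or other cells not expected to make a gene is read as background. KO skin and WT skin shared 2417 of their barcodes over the first 16 bases, and no full barcode.

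In melanocytic cells Pros1 was lower in KO skin than in WT skin. It had 54 UMIs in KO skin (0.929 CPM, 0.698 to 1.21) and 2631 UMIs in WT skin (47.2 CPM, 45.5 to 49.1), a ratio of 0.0197 (0.0147 to 0.0257), or 50.8-fold lower. In these cells 10.4% of 11618 genes were lower past 2-fold and 15.7% higher, and 0.146% of genes had a lower ratio than Pros1. Every melanocytic cluster of KO skin lay between 0.380 and 3.06 CPM, and every one of WT skin between 39.0 and 53.1 CPM, with no overlap.

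The share of melanocytic cells with a Pros1 UMI was 0.675% in KO skin and 28.5% in WT skin, at median depths of 4234 and 6061 UMIs. With each cell thinned to 1000 UMIs, which left 7627 and 5401 cells, the shares were 0.144% and 4.20%. In neutrophils thinned alike they were 0.435% and 3.14%, at median depths of 1239 and 1015 UMIs before thinning. The level in KO skin melanocytic cells is therefore within background, though that background rests on few UMIs. In KO skin the 364 neutrophils held 4 Pros1 UMIs, T or NK cells 3 UMIs (9.66 CPM), erythroid cells 1 UMI (1.48 CPM) and B cells 0. Neutrophils had 4.80 CPM of Pros1 in KO skin and 40.7 CPM in WT skin, beside summed melanocytic markers of 27959 and 40555 CPM, and the part of free RNA in these levels was not tested. The neutrophil interval in WT skin (34.8 to 47.3 CPM) overlapped those of melanocytic cells and of macrophages there. It rested on 1 of the 3 neutrophil clusters, which held 149 of the 169 Pros1 UMIs (54.9 CPM) beside 52425 CPM of melanocytic markers. The other neutrophil clusters of WT skin had 14.8 and 10.3 CPM and T or NK cells 13.9 CPM (2.88 to 40.7, 3 UMIs), all below the 47.2 CPM of melanocytic cells.

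**Figure D3:**
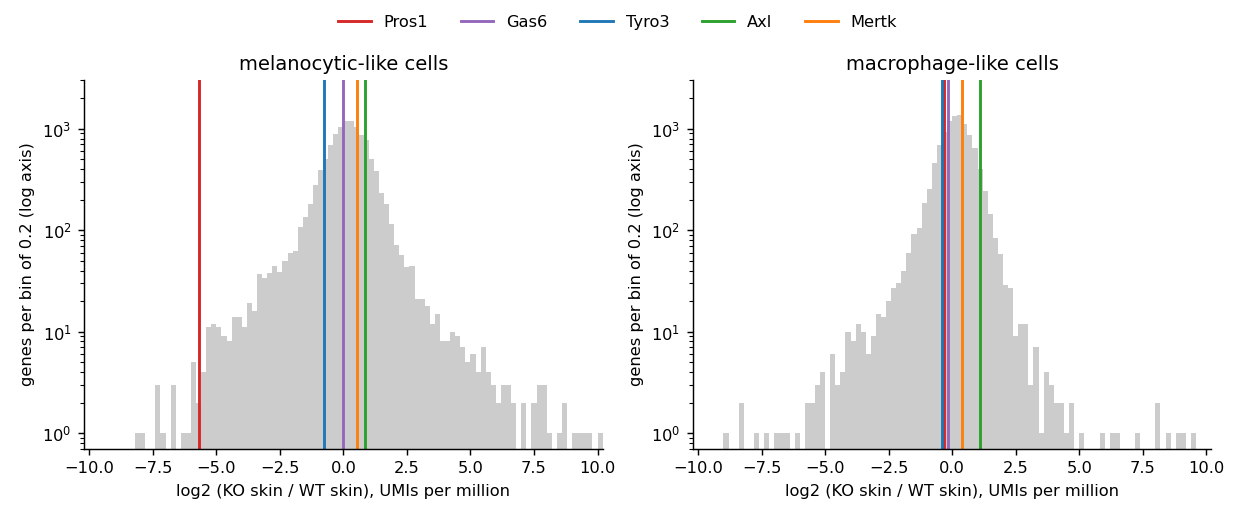
Log2 ratio of KO skin to WT skin for all genes with enough UMIs (grey histogram, log count axis) in melanocytic-like and macrophage-like cells, with the 5 members as vertical lines. In melanocytic cells Pros1 stands at −5.67, at the low edge of the distribution, and the other members within 1 log2 unit of 0.

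Host cells held Pros1 in both skin tumours. Fibroblasts had 192 CPM in KO skin (172 to 214) and 159 CPM in WT skin (148 to 171), and endothelial cells 109 CPM (89.0 to 132) and 102 CPM (85.3 to 121). Macrophages had 37.8 CPM (33.9 to 42.0) in KO skin and 47.1 CPM (43.9 to 50.4) in WT skin, a ratio of 0.803. Under the alternatives this ratio ran from 0.732 with at least 1000 UMIs per cell to 1.01 as a mean over cells. It was 0.924 without macrophage clusters high in melanocytic RNA. Melanocytic cells held 5.38% of all Pros1 UMIs of the cells kept in KO skin and 55.5% of those in WT skin, fibroblasts 34.3% and 15.8%, and macrophages 34.3% and 17.5%. A cluster of 41 cells in KO skin led by Ppbp, Tubb1 and Itga2b, genes of platelets and megakaryocytes, held 230 CPM and was left unnamed.

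Gas6 was held mainly by macrophages. They had 357 CPM in KO skin (345 to 370) and 395 CPM in WT skin (386 to 404), a ratio of 0.905 that was 0.605 without the highest doublet scores, and held 69.4% and 84.7% of the Gas6 UMIs of their matrices. Fibroblasts had 116 and 148 CPM and endothelial cells 34.2 and 59.4 CPM. Melanocytic cells had 5.13 CPM in KO skin and 5.14 CPM in WT skin, below the 7.20 and 11.8 CPM of neutrophils, so no Gas6 was detectable in them above background.

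In the skin tumours Tyro3 in melanocytic cells had 40.2 CPM in KO skin (38.6 to 41.9) and 67.7 CPM in WT skin (65.5 to 69.9), a ratio of 0.594 (0.564 to 0.626) that did not pass 2-fold, and 14.7% of genes had a lower ratio. The clusters overlapped, the highest of KO skin at 62.4 CPM and the lowest of WT skin at 43.2 CPM. In macrophages it had 19.7 and 26.2 CPM, at or below the 21.6 and 39.5 CPM of neutrophils, though 2 of the 3 neutrophil clusters of WT skin were lower, at 20.9 and 13.7 CPM. Small classes reached the melanocytic level: B cells had 63.6 CPM (30.5 to 117, 10 UMIs) in KO skin, and erythroid cells 45.8 CPM (31.1 to 65.0) in KO skin and 87.0 CPM (39.8 to 165, 9 UMIs) in WT skin. The melanocytic level therefore stood above that of neutrophils in both tumours but not above all classes not expected to make Tyro3.

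Axl was the receptor with the most UMIs in the melanocytic cells. It had 619 CPM in KO skin (613 to 625) and 344 CPM in WT skin (339 to 349), a ratio of 1.80 (1.77 to 1.83) that did not pass 2-fold. The clusters overlapped, with 473 to 1157 CPM in KO skin and 223 to 574 CPM in WT skin, and 79.5% of genes had a lower ratio. Fibroblasts had 660 CPM in KO skin and 518 CPM in WT skin. Among cells not expected to make Axl, neutrophils had 379 and 237 CPM, B cells 611 and 227 CPM and erythroid cells 538 and 396 CPM. The melanocytic level stood above neutrophils in both tumours, but in WT skin it was below that of erythroid cells (41 UMIs).

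In macrophages Axl had 451 CPM in KO skin (437 to 465) and 209 CPM in WT skin (202 to 216), a ratio of 2.16. It was the only member past 2-fold there, where 9.96% of 10614 genes were higher past 2-fold and 6.38% lower. The ratio was 2.07 with the 50 most abundant genes out of the total and 2.27 as a mean over cells, and under 2 where the class was drawn otherwise: 1.72 with at least 1000 UMIs per cell, 1.94 at a lower clustering resolution, 1.38 without the highest doublet scores, 1.90 with clusters kept out by their leading genes, and 1.88 without the clusters high in melanocytic RNA. Neutrophils had 379 and 237 CPM of Axl, T or NK cells 290 and 228 CPM and B cells 611 and 227 CPM, and the neutrophil clusters of WT skin ran from 89.3 to 309 CPM. Axl in macrophages lay within the range of these cells in both tumours, so its ratio there cannot be read as a difference in expression.

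Mertk was held mainly by macrophages. They had 278 CPM in KO skin (267 to 289) and 213 CPM in WT skin (206 to 220), a ratio of 1.31 (1.24 to 1.37) that turned to 0.893 without the highest doublet scores, with 79.3% and 90.7% of the Mertk UMIs of their matrices. Melanocytic cells had 3.91 and 2.69 CPM, below the 12.0 and 4.58 CPM of neutrophils, and endothelial cells 25.9 and 34.8 CPM.

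**Figure D4:**
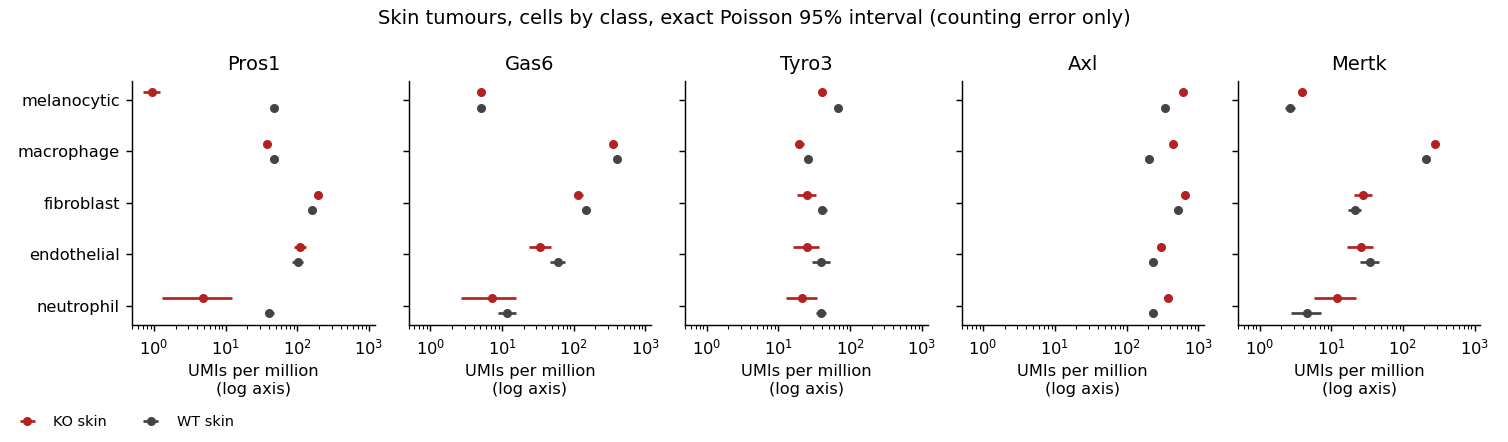
Summed UMIs, in CPM, of each member in 5 cell classes of the matrices labelled KO skin (red) and WT skin (grey), on log axes, with exact Poisson 95% intervals. Pros1 in melanocytic cells, at 0.929 and 47.2 CPM, is the widest gap, and Gas6 and Mertk stand highest in macrophages in both tumours.

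The macrophage clusters of a tumour differed in Gas6 and Mertk. In KO skin a cluster led by Mmp12 and Lpl had 392 CPM of Gas6 and 398 CPM of Mertk, and one led by Stab1 and C1qa had 327 and 173 CPM. In WT skin a cluster led by C1qa had 990 CPM of Gas6 and 398 CPM of Mertk, one led by Mmp12 and Arg1 had 182 and 176 CPM, and one with Cma1 among its leading genes had 140 and 91.9 CPM. The order of the clusters was not the same in the tumours: Mertk was highest with Mmp12 in KO skin and with C1qa in WT skin. The clusters lowest in Mertk were also the highest in melanocytic markers, at 28405 CPM in KO skin and 47247 CPM in WT skin, against 9750 CPM and 8545 to 9330 CPM in the others, and the part of this in the order was not tested.

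The ocular matrices came from different workflows, so their values are given without a ratio. WT ocular listed 32285 genes with barcodes of 16 bases, and the other matrices 19059 genes with barcodes of 24. In melanocytic cells KO ocular had 0.556 CPM of Pros1 (23 UMIs), 2.47 of Gas6, 60.0 of Tyro3, 663 of Axl and 1.57 of Mertk. WT ocular had 3.58, 21.2, 5.42, 75.3 and 1.84 CPM of the same genes. The leading genes of its only melanocytic cluster held no melanocytic marker, which was also so for every melanocytic cluster of WT skin. Its melanocytic markers summed to 10379 CPM, against 51765 CPM in the melanocytic cells of KO ocular. They were close to the 9615 CPM of the unnamed cells of WT ocular itself, so its melanocytic class is weakly set apart. Pros1 in KO ocular melanocytic cells was again below its level over all neutrophils (2.54 CPM), whose clusters ran from 0 to 5.87 CPM.

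Ocular macrophages held Gas6 and Mertk as well. In KO ocular they had 477 CPM of Gas6 and 282 CPM of Mertk, with 74.5% and 85.7% of those UMIs, and in WT ocular 131 and 26.5 CPM, with 23.0% and 37.3%. Their Pros1 was 39.7 CPM in KO ocular and 13.4 CPM in WT ocular, their Tyro3 14.9 and 3.47 CPM, and their Axl 298 and 61.4 CPM. Neutrophils of KO ocular had 310 CPM of Axl, 135 to 490 CPM in their 4 clusters, of which the highest also held the most melanocytic markers (36916 CPM, against 13967 CPM in the macrophages). The other 3 clusters, at 135, 145 and 245 CPM, and monocytes, at 102 CPM, were below the macrophages, while erythroid cells had 582 CPM. By erythroid cluster, Axl was 485 and 752 CPM beside 34475 and 51360 CPM of melanocytic markers. The remaining erythroid cluster, with 6351 CPM of those markers, had 78.9 CPM of Axl, below the macrophages. WT ocular had no named neutrophils, and its B and erythroid cells had 41.9 and 38.2 CPM of Axl.

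Cells of the eye held further members in KO ocular. Pigment or ciliary epithelium, 67 cells, had 584 CPM of Gas6, 206 CPM of Tyro3 and 155 CPM of Mertk, and in the retinal pigment epithelium this axis is known to drive the daily uptake of photoreceptor tips. Müller glia or astrocytes, 52 cells, had 299 CPM of Pros1 and 712 CPM of Axl. Fibroblasts had 166 CPM of Pros1 and endothelial cells 133 CPM, close to their levels in the skin.

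**Figure D5:**
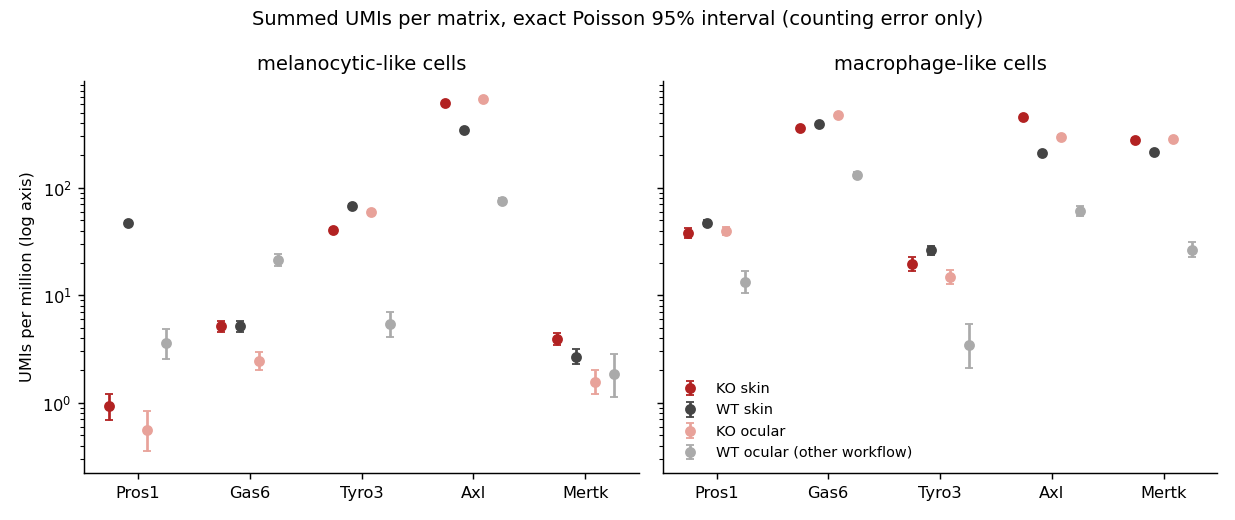
Summed UMIs, in CPM, of the 5 members in melanocytic-like and macrophage-like cells of the 4 matrices, on a log axis with exact Poisson 95% intervals. Pros1 in melanocytic cells is 0.929 CPM in KO skin and 0.556 CPM in KO ocular, against 47.2 CPM in WT skin; WT ocular (light grey) came from another workflow.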

How the data were processed

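The authors deposited bulk values on a variance-stabilised log2 scale. The stabilised values inverted to whole reads, 100% of them within 0.01 of a whole number. Stranded libraries came from polyadenylated RNA, per the labels' protocols. The sources used here name no aligner, counter or package for the bulk libraries. Raw UMI counts were deposited as matrices written by Cell Ranger 8.0.0, and 7.0.0 for WT ocular, per the file headers. Per the submitters' processing notes, genome builds were GRCm38 and mm10. No column of per-sample values was left unused.

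Genes with a mean at least 1 above the lowest stabilised value (6.61) were tested, 10803 in all, with limma 3.58.1 in R 4.3.3 (trend, 5 groups, Benjamini-Hochberg adjusted p under 0.05). For the clone as the unit, the cultures of a line were averaged and the single WT value was taken to vary like the clones. Recovered reads were tested with edgeR 4.0.16 and DESeq2 1.42.0. WT cultures differed by a mean chi-square per gene of 2.50 (median 0.98), so they were counted as 2 samples. The cultures of clones 1 to 4 differed far more, by means of 79.3, 67.6, 11.3 and 66.2 (medians 11.5, 11.0, 2.65 and 11.7). Limma pooled these unequal spreads into a shared SE per gene, which does not describe the spread of any single line. On simulated data for clone 1 over 10803 genes, 82 of 100 genes changed 2-fold and 96 of 100 changed 4-fold were recovered, with 7 false calls.

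Cells with at least 500 UMIs, 200 genes and at most 20% mitochondrial UMIs were clustered within each matrix (scanpy 1.11.5, 2000 variable genes, 30 components, 15 neighbours, Leiden resolution 1). The rule that names clusters from the markers, and the genes that bar a name, were set after the clusters were seen, as the last of 4 versions. Clusters whose leading genes held more markers of another class stayed unnamed, 13.96% of cells in KO skin, 13.3% in KO ocular and 17.0% in WT ocular, and further clusters stayed unnamed, 6.05%, 11.9% and 33.7%, with 11.4% in WT skin. Scrublet called no doublets in KO skin, WT skin or WT ocular and 1.14% in KO ocular, so doublets were not removed and the caller has not worked there. Folds in the skin matrices use genes with at least 100 UMIs over both classes compared.

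The members and lists were chosen with earlier results of these data known. Named genes were the members, per list up to 3 genes with the largest mean difference over the clones among those called in at least 1 clone, and genes called with one sign in all 4 clones. Some genes that this rule names are not reported here. Whole-genome and whole-exome libraries were not analysed here.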

Additional observations from a re-analysis of the deposited data

Results flagged for a closer look

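The differences of 3 members from WT differed among the clones, in a limma F test adjusted over all genes. For Pros1 the adjusted p was 9.61e-05, with clone 1 at −1.16 and the others at −2.99 to −3.37 log2 units. Pros1 was chosen from these same clones, so its value is not independent of that choice. For Axl it was 0.000512, with clone 3 at 0.80 and clone 1 at −0.64. For Tyro3 it was 0.0281, with clone 4 at 0.28 and clone 3 at −0.25. Among all genes tested 44.5% passed the same test.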

How the results depend on the processing

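Limits: each clone is a single line, the WT is a single line and each kind of tumour a single matrix. Values therefore measure cultures, lines or counting error only, and the stabilised scale compresses low levels such as Mertk. The count of receptors called against WT was 1 in clone 1 under DESeq2 on recovered reads (with and without a filter) and under the replicate block, 1 in clone 2 and 2 in clone 3 with only WT and the one clone in the fit, against 0, 0 and 1 as reported. Leaving out single cultures it ran from 0 to 1 in clones 1 and 4 and stayed at 0 in clone 2 and 1 in clone 3. The count of pathway genes in clone 1 was 0 with a filter of 2 above the lowest, 8 under DESeq2 (with and without a filter) and under the replicate block, and 1 with only WT and clone 1 in the fit. Leaving out single cultures it ran from 1 to 10 for clone 1, from 14 to 34 for clone 2, from 22 to 38 for clone 3 and from 15 to 29 for clone 4. Replicate numbers were not taken as pairs in the main fit, since same-numbered deviations did not run together with WT (−0.13 to −0.07) or between clones 3 and 4 (−0.03). In the other 5 of the 6 pairs of clones they correlated at 0.11 to 0.73. A part shared by same-numbered cultures of the clones thus stays in the spread of the main fit. The replicate block gave 616 calls over all genes in clone 1, against 378 without it, and moved no other count by over 1.5 times and no other call of a receptor. On the log2 scale of reads, edgeR and DESeq2 gave Pros1 values of −5.66 and −5.67 for clone 2, −4.53 and −4.53 for clone 3 and −5.06 and −5.07 for clone 4, and without a filter −5.65 and −5.67, −4.50 and −4.52, and −5.03 and −5.05. Leaving out single cultures Pros1 ran from −1.54 to −0.78 (clone 1), −3.49 to −3.24 (clone 2), −3.08 to −2.90 (clone 3) and −3.25 to −3.10 (clone 4). The 3 members that differed among the clones were 2 to 3 without single cultures. In macrophages 0 members passed 2-fold with at least 1000 UMIs per cell, at resolution 0.5, without the 5% highest doublet scores, with clusters kept out by their leading genes, and without clusters high in melanocytic RNA (the last was not possible for WT ocular, which had a single macrophage cluster). The alternatives without a filter on recovered reads and those on cluster membership were chosen after seeing the data. The causes were not tested.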
